A study of Mus musculus with 15 samples.

Results

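The transcripts described here are 10 genes of the fibrous matrix in mouse liver: the collagen chain genes Col1a1, Col1a2, Col3a1, Col5a1, Col5a2, Col6a3 and Col14a1, and the lysyl oxidase genes Lox, Loxl1 and Loxl2. They were chosen by gene symbol, with earlier results of these data known. All 10 of them were found in each of the 3 deposited count tables, which together list 26839 genes. Collagen chains wind around each other into trimers, which is possible because the helix repeats Gly-X-Y triplets whose glycine, the smallest amino acid, fits its crowded core. Outside the cell the trimers of types I, III and V pack into fibrils, and lysyl oxidases, which are copper-dependent enzymes, oxidise lysine side chains so that neighbouring molecules become covalently cross-linked. In a scarred liver most fibrillar collagen is made by activated hepatic stellate cells and portal fibroblasts, and cross-linked fibrils are harder to break down.

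Liver RNA had been sequenced from male C57BL/6J mice in 15 libraries, 3 in each of 5 groups. All groups carried an adeno-associated virus (AAV). The first received Activin A under the thyroxine binding globulin (TBG) promoter, which is active in hepatocytes, on a diet that produces non-alcoholic steatohepatitis (the FPC NASH diet) with sugar water for 16 weeks. The second received a short hairpin RNA against Gpnmb from an H1 promoter, which is not specific to a cell type, and the third a scramble hairpin from the same kind of vector, both on the NASH diet with sugar water for 16 weeks. The fourth received green fluorescent protein (GFP) under the TBG promoter on the NASH diet with sugar water for 16 weeks. The fifth received GFP on standard chow with normal water for 16 weeks. The age of the mice is not given in the labels, nor is it stated that each library came from a mouse of its own. The p-values therefore reflect only how much these libraries vary, which may be partly technical. Activin A is a secreted dimer of the TGF-beta family encoded by Inhba, and Gpnmb encodes a membrane glycoprotein found on macrophages and other cells.

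Library totals ran from 15276879 to 23467867 counts, and albumin transcripts took 4.53% to 6.70% of them. None of the hepatocyte markers was at 0 in any group. Gpnmb stood at 1.45, 1.26 and 3.30 CPM in hairpin livers, against 26.2, 36.4 and 32.8 CPM in scramble livers, and Inhba stood at 25.7, 24 and 25.3 CPM in Activin A livers, against 8.03, 7.86 and 8.13 CPM in GFP livers on the NASH diet. Gpnmb was low in Activin A livers too, at 5.67, 3.38 and 2.98 CPM. It stood at 40.4, 25.9 and 24.9 CPM in GFP livers on the NASH diet and 0.243, 0.149 and 0.483 CPM in chow livers. Levels are CPM, counts scaled to a common library total, with trimmed mean of M values (TMM) factors. A gene was called where its Benjamini-Hochberg adjusted p over all genes tested, from edgeR's quasi-likelihood test, was under 0.05. In whole tissue, fewer cells of a type and less RNA per cell cannot be told apart.

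The label of the set was first checked against the gene models, since a long unbroken run of Gly-X-Y triplets is typical of fibrillar collagens. Only genes of the set were searched for it. The longest such run held 338 triplets in Col1a1, 339 in Col1a2, 344 in Col3a1, 338 in Col5a1 and 339 in Col5a2 (coding sequence of GENCODE vM21, GRCm38). It held 45 triplets in Col6a3, a chain of the beaded-filament collagen VI, and 32 in Col14a1, a fibril-associated collagen with interrupted helices (FACIT). By this run 5 of the 7 collagen genes are of the fibrillar kind, and Col6a3 and Col14a1 belong to other collagen families that sit on or beside fibrils. The coding exons lying wholly inside the run numbered 41 in Col1a1, 42 in Col1a2, 42 in Col3a1, 47 in Col5a1 and 42 in Col5a2. All of them were multiples of 9 bases long, the length that encodes 1 triplet, and between 21 and 29 of them per gene were exactly 54 bases, or 6 triplets.

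**Figure D1:**
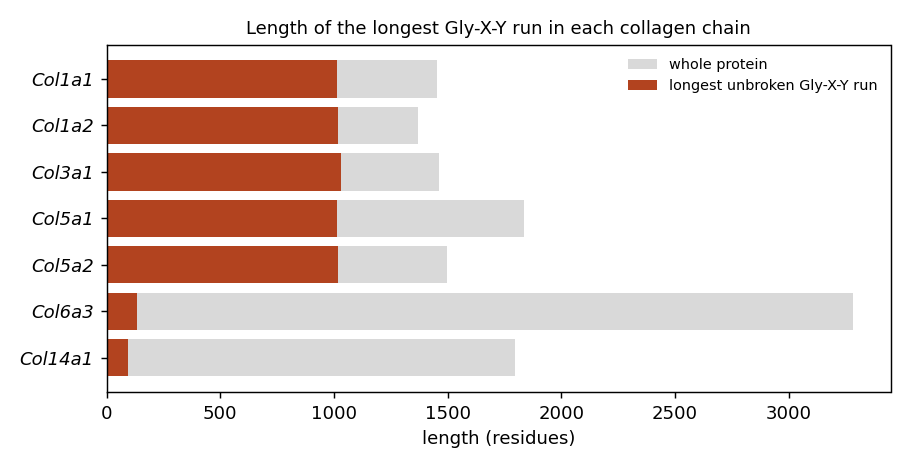
Length in residues of the longest unbroken Gly-X-Y run (red) and of the whole chain (grey) for the 7 collagen genes, drawn from 0 without regard to where in the chain the run lies. The run is 338 to 344 triplets in the 5 fibrillar chains and 45 and 32 triplets in Col6a3 and Col14a1.

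For 4 of the 5 fibrillar genes, the last 54-base exon lying wholly in the run and opening with a glycine codon is given. Each is written 5′ to 3′ on the coding strand, with glycine codons in capitals (GRCm38). The Col1a1 exon is exon 46 at chr11:94949720-94949773, the Col1a2 exon is exon 47 at chr6:4537173-4537226, and the Col3a1 exon is exon 46 at chr1:45344797-45344850, all on the plus strand. The Col5a2 exon is exon 49 at chr1:45383167-45383220 on the minus strand.
Col1a1: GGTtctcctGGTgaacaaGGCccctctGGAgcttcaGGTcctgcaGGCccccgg
Col1a2: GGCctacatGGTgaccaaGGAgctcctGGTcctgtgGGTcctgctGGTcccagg
Col3a1: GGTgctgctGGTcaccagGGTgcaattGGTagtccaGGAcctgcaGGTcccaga
Col5a2: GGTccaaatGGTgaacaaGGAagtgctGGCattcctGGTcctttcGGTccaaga
By this choice of exon a glycine codon opens every triplet in each of the 4, 6 of 6. Beyond the helix, the last 200 residues, which hold most of the domain that starts trimer assembly, were 59.1% identical to Col1a1 at aligned positions in Col1a2, 64.8% in Col3a1, 58.6% in Col5a2 and 45.8% in Col5a1.

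The lysyl oxidases were compared over their last 200 residues, which hold the copper-binding and catalytic part. Loxl1 was 75.0% identical to Lox there, and Loxl2 was 51.7% identical to Lox and 50.6% to Loxl1. The codons of the histidine-rich copper-binding motif are shown for Loxl1 and Loxl2, with histidine codons in capitals, because the motif is what the enzymes share. They span exons 3 and 4 of Loxl1 (minus strand of chromosome 9, between 58293720 and 58294381) and exons 10 and 11 of Loxl2 (plus strand of chromosome 14, between 69682316 and 69689037), with the intron left out.
Loxl1: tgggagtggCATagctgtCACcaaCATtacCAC
Loxl2: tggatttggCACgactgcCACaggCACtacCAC
The search for the motif itself required 4 histidine codons at these places in the 33 bases, so their agreement is not a result.

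The table of RefSeq promoters (GRCm38.p6) matched 4 of the 10 genes, namely Col1a2, Col3a1, Col5a1 and Col6a3. In the 250 bases before the start, on either strand, CCAAT was found in Col1a2 alone, 109 bases before the start, and 33.8% of all 32851 promoters held it. GGGCGG was found in Col1a2 and Col5a1, against 32.7% of all promoters. The 2 motifs do not overlap in letters.

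The diet comparison set livers on the NASH diet with sugar water against livers on chow with normal water, both with the GFP vector. All 10 genes were called higher on the NASH diet, and 11.2% of the 14388 genes tested were called higher and 5.82% lower. Higher calls were 65.7% of all calls, or 86.8% when libraries were scaled by their totals alone. All 10 also had groups that did not overlap, with the NASH libraries above, against 18.9% of all genes. The median log2 fold change of the 10 was 1.75, and that of all genes was -0.01. The type I chain genes, the type III gene and Loxl2 rose most, and Col5a1, Col6a3 and Col14a1 rose least.

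Col1a1 (ENSMUSG00000001506, chr11:94936224-94953042, plus strand) encodes the chain that the type I trimer uses most. It stood at 61.9, 67.3 and 32.2 CPM in the 3 NASH GFP libraries, against 9.30, 9.17 and 7.93 CPM in the chow GFP libraries. Its level was 6.27 times that in chow livers, a log2 fold change of 2.65 ± 0.27 (SE; edgeR adjusted p = 0.000266), and GFP NASH library 3 was the lowest of its group. Col1a2 (ENSMUSG00000029661, chr6:4504814-4541544, plus strand), the partner chain of type I, stood at 63.1, 63.8 and 40.6 CPM in NASH livers, against 15.7, 13.6 and 10.1 CPM in chow livers. The change of Col1a2 was 2.12 ± 0.23 on the log2 scale (edgeR adjusted p = 0.000359), and here too NASH library 3 was lowest while no chow library reached it. Col3a1 (ENSMUSG00000026043, chr1:45311538-45349706, plus strand), whose product forms type III trimers that share fibrils with type I, stood at 161, 169.7 and 84.0 CPM in NASH livers, against 33.1, 31.8 and 33.8 CPM in chow livers. The chow libraries of Col3a1 lay close together, and the change was 2.11 ± 0.24 (edgeR adjusted p = 0.000466). Exons of Col3a1 share 141 bases with a microRNA gene on the same strand, Gm47302, so a part of its counts could be ambiguous.

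Type V collagen nucleates fibrils and limits their width, and its chain genes had smaller log2 fold changes than those of type I, a difference between genes that was not tested. Col5a1 (ENSMUSG00000026837, chr2:27886425-28039514, plus strand) stood at 24.4, 17.2 and 18.4 CPM in NASH livers, against 9.0, 9.10 and 8.07 CPM in chow livers, a change of 1.23 ± 0.19 (edgeR adjusted p = 0.00196). Col5a2 (ENSMUSG00000026042, chr1:45374321-45503282, minus strand) stood at 15.4, 12.2 and 7.75 CPM in NASH livers, against 3.95, 4.92 and 1.86 CPM in chow livers, a change of 1.76 ± 0.37 (edgeR adjusted p = 0.00911). The chow libraries of Col5a2 spread widely, with library 3 well below the other two. Exons of Col5a1 share 99 and 113 bases with 2 genes on the opposite strand, 2810430I11Rik and Gm13372, and the strand setting of the counting is not given.

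The collagens that sit beside or on the fibril also rose. Col6a3 (ENSMUSG00000048126, chr1:90765923-90843971, minus strand), a chain of the microfibrils that anchor cells to fibrils, stood at 26.9, 35.0 and 18.2 CPM in NASH livers, against 13.1, 13.4 and 7.86 CPM in chow livers, a change of 1.25 ± 0.28 (edgeR adjusted p = 0.0120). Library 3 was the lowest in both groups. Col14a1 (ENSMUSG00000022371, chr15:55307750-55520803, plus strand), whose product binds the fibril surface, stood at 123, 88.1 and 92.1 CPM in NASH livers, against 41.8, 47.4 and 46.1 CPM in chow livers, a change of 1.20 ± 0.17 (edgeR adjusted p = 0.00106).

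Of the cross-linking enzymes, Lox (ENSMUSG00000024529, chromosome 18) was the least abundant of the 10 genes, with 49, 43 and 27 counts in NASH livers, against 14, 5 and 7 counts in chow livers. Its levels were 2.16, 2.06 and 1.45 CPM in NASH livers, against 0.851, 0.373 and 0.483 CPM in chow livers, a change of 1.74 ± 0.47 (edgeR adjusted p = 0.0289). The call of Lox was lost without GFP NASH library 1 or 2 (edgeR adjusted p = 0.122 and 0.100) and without GFP chow library 2 or 3 (edgeR adjusted p = 0.0847 and 0.0819). Loxl1 (ENSMUSG00000032334, chr9:58287738-58313186, minus strand), which acts on elastic fibres as well as collagen, stood at 6.40, 11.3 and 5.22 CPM in NASH livers, against 2.80, 2.31 and 3.04 CPM in chow livers, a change of 1.53 ± 0.33 (edgeR adjusted p = 0.0104). Its second NASH library was well above the other two. Loxl2 (ENSMUSG00000034205, chr14:69609068-69695834, plus strand), a family member with scavenger receptor domains, stood at 8.91, 8.05 and 5.11 CPM in NASH livers, against 1.76, 2.09 and 1.72 CPM in chow livers, a change of 2.02 ± 0.30 (edgeR adjusted p = 0.00156). Exons of Loxl2 share 301 bases with the antisense gene Gm27177 and exons of Lox share 30 bases with the antisense gene AC161119.1, so their strand of origin is uncertain.

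**Figure D2:**
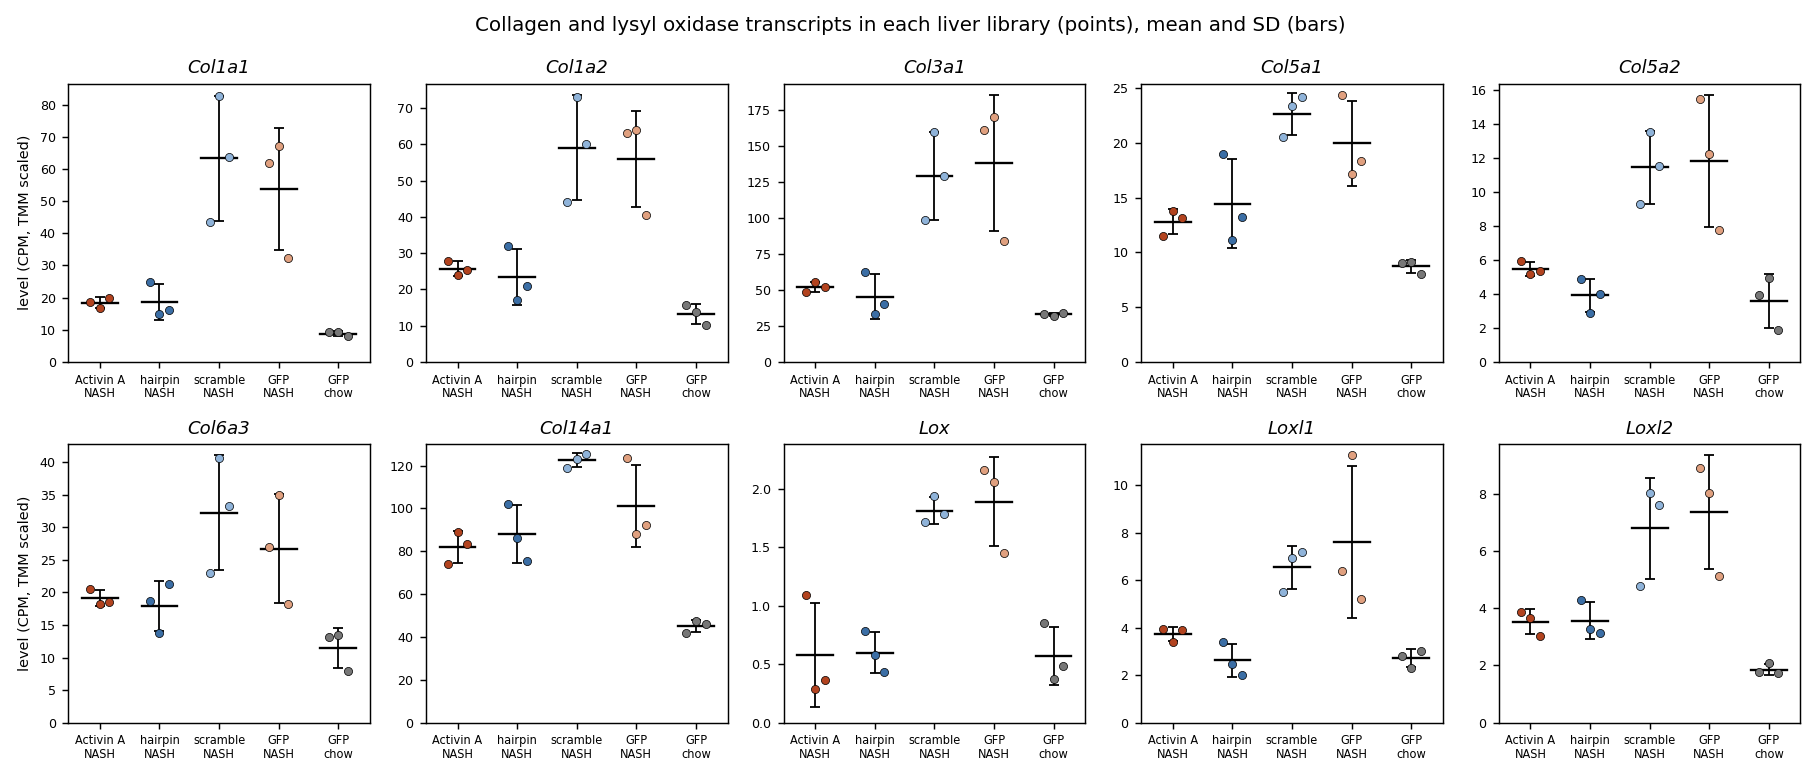
Level of each of the 10 transcripts in CPM (linear axes from 0) in the 15 libraries. Points are libraries in replicate order, and bars are the group mean and SD (n = 3). NASH livers with GFP or the scramble hairpin lie above chow livers for every gene, and Activin A and hairpin livers lie below their NASH controls by group mean.

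The Activin A comparison set Activin A livers against GFP livers, both on the NASH diet. Activin A livers had lower levels of 6 of the 10 genes: Col1a1, Col1a2, Col3a1, Col5a1, Col5a2 and Loxl2. Of the 14598 genes tested, 3.86% were called lower and 1.66% higher. The other 4 genes, Col6a3, Col14a1, Lox and Loxl1, missed the threshold with negative log2 fold changes. All 10 had an unadjusted p under 0.05, and 8 of them had groups that did not overlap, with Activin A below, against 12.8% of all genes. The median log2 fold change was -1.10 over the 10 genes and 0.00 over all genes. This comparison shares its GFP NASH libraries with the diet comparison.

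Among the main fibril chains, Col1a1 stood at 18.6, 16.8 and 20.0 CPM in Activin A livers, against 61.9, 67.3 and 32.2 CPM in GFP livers. This was 2.95-fold lower, a log2 fold change of -1.56 ± 0.24 (edgeR adjusted p = 0.00678). Col1a2 stood at 27.9, 24 and 25.3 CPM in Activin A livers, against 63.1, 63.8 and 40.6 CPM in GFP livers, and changed by -1.14 ± 0.17 (edgeR adjusted p = 0.00595). Col3a1 stood at 48.8, 55.6 and 51.7 CPM in Activin A livers, against 161, 169.7 and 84.0 CPM in GFP livers, and changed by -1.42 ± 0.23 (edgeR adjusted p = 0.00770). In all 3 genes the Activin A libraries lay within a narrow band below the lowest GFP library, number 3. Col5a1 stood at 11.5, 13.8 and 13.2 CPM in Activin A livers and changed by -0.66 ± 0.16 (edgeR adjusted p = 0.0418), and Col5a2 stood at 5.95, 5.16 and 5.35 CPM and changed by -1.12 ± 0.24 (edgeR adjusted p = 0.0279). For both type V chains every Activin A library was below every GFP library.

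Col6a3 stood at 20.6, 18.2 and 18.5 CPM in Activin A livers, against 26.9, 35.0 and 18.2 CPM in GFP livers, with a log2 fold change of -0.50 ± 0.20 (edgeR adjusted p = 0.206). Col14a1 stood at 73.9, 88.9 and 83.2 CPM in Activin A livers, against 123, 88.1 and 92.1 CPM in GFP livers, with a log2 fold change of -0.32 ± 0.14 (edgeR adjusted p = 0.241). These were the 2 genes of the set whose groups overlapped, and neither was called. For Lox the Activin A libraries held 20, 5 and 6 counts, or 1.09, 0.287 and 0.365 CPM, against 2.16, 2.06 and 1.45 CPM in GFP livers, with a log2 fold change of -1.69 ± 0.50 (edgeR adjusted p = 0.0879). The first Activin A library was the highest of its group for Lox, and without it the change was -2.54 (edgeR adjusted p = 0.0455). Loxl1 stood at 3.93, 3.38 and 3.89 CPM in Activin A livers, against 6.40, 11.3 and 5.22 CPM in GFP livers, with a log2 fold change of -1.05 ± 0.29 (edgeR adjusted p = 0.0712). Loxl2 stood at 3.87, 3.67 and 3.04 CPM in Activin A livers, against 8.91, 8.05 and 5.11 CPM in GFP livers, and changed by -1.08 ± 0.25 (edgeR adjusted p = 0.0381). The authors' deposited table calls 7 of the 10 genes lower under Activin A, with Loxl1 (adjusted p = 0.0175 in the authors' deposited table) added to the 6.

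The number called under Activin A depended on single libraries. It was 3, 3 and 2 without Activin A library 1, 2 and 3, and 3, 4 and 8 without GFP NASH library 1, 2 and 3. Calls over all genes moved as well, from 564 lower with all 6 libraries to 206, 266 and 180 without Activin A library 1, 2 and 3, and to 395, 438 and 900 without GFP NASH library 1, 2 and 3. Col1a1 and Col1a2 were called in each of these 6 fits. Without GFP NASH library 3, which held the lowest level of its group for 8 of the 10 genes, Col6a3 and Loxl1 were called as well (edgeR adjusted p = 0.00945 and 0.0144). The summed level of the 10 genes in that library was 305 CPM, against 493 and 475 CPM in the other two GFP NASH libraries.

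The hairpin comparison set Gpnmb hairpin livers against scramble livers, both on the NASH diet. All 10 genes were called lower in hairpin livers, where 12% of the 14845 genes tested were called lower and 12.2% higher. Higher calls were 50.3% of all calls, or 29.0% when libraries were scaled by their totals alone. All 10 had groups that did not overlap, against 22% of all genes with hairpin libraries below. The median log2 fold change was -1.31 over the 10 genes and 0.00 over all genes. Col1a1, Lox, Col5a2 and Col3a1 fell most, and Col14a1 fell least.

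Col1a1 stood at 24.9, 14.8 and 16.2 CPM in hairpin livers, against 43.6, 82.6 and 63.7 CPM in scramble livers, and was 3.35-fold lower, a log2 fold change of -1.74 ± 0.23 (edgeR adjusted p = 0.000650). Col1a2 stood at 31.9, 17.2 and 20.9 CPM in hairpin livers, against 44.0, 73.0 and 60.2 CPM in scramble livers, a change of -1.32 ± 0.22 (edgeR adjusted p = 0.00208). Col3a1 stood at 62.5, 33 and 40.2 CPM in hairpin livers, against 98.6, 159 and 129 CPM in scramble livers, a change of -1.49 ± 0.22 (edgeR adjusted p = 0.00107). The first hairpin library was the highest of its group and the first scramble library the lowest of its group for these 3 genes, yet the groups stayed apart. Over the whole set the first hairpin library was highest for 9 of the 10 genes, and the first scramble library was lowest for all 10.

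For the type V chains, Col5a1 stood at 19.0, 11.1 and 13.3 CPM in hairpin livers, against 20.5, 23.4 and 24.2 CPM in scramble livers, a change of -0.63 ± 0.17 (edgeR adjusted p = 0.0208). Col5a2 stood at 4.85, 2.89 and 4.0 CPM in hairpin livers, against 9.27, 13.5 and 11.5 CPM in scramble livers, a change of -1.53 ± 0.21 (edgeR adjusted p = 0.000750). The highest hairpin library of Col5a1 came close to its lowest scramble library, whereas those of Col5a2 were far apart. Col6a3 stood at 18.7, 13.7 and 21.3 CPM in hairpin livers, against 23.0, 40.6 and 33.2 CPM in scramble livers, a change of -0.83 ± 0.20 (edgeR adjusted p = 0.0138). Col14a1 stood at 102, 86.4 and 75.2 CPM in hairpin livers, against 119, 123 and 125 CPM in scramble livers, a change of -0.45 ± 0.10 (edgeR adjusted p = 0.00807). The scramble libraries of Col14a1 were nearly level with each other.

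Among the enzymes, Lox held 13, 11 and 8 counts in hairpin livers, against 39, 44 and 45 counts in scramble livers. This was 0.788, 0.579 and 0.433 CPM in hairpin livers, against 1.72, 1.94 and 1.78 CPM in scramble livers, a change of -1.57 ± 0.35 (edgeR adjusted p = 0.00916). Loxl1 stood at 3.39, 2.47 and 2.00 CPM in hairpin livers, against 5.52, 6.92 and 7.21 CPM in scramble livers, a change of -1.30 ± 0.23 (edgeR adjusted p = 0.00278). For Loxl2 the groups were closer, with 4.30, 3.26 and 3.14 CPM in hairpin livers, against 4.76, 8.03 and 7.60 CPM in scramble livers, a change of -0.91 ± 0.24 (edgeR adjusted p = 0.0182). Leaving out 1 library kept 7 to 10 of the 10 calls. Col5a1 and Loxl2 lost theirs without hairpin library 2 or 3 or scramble library 2 or 3 (edgeR adjusted p = 0.0533 to 0.0862), and Col6a3 lost its call without hairpin library 2 or scramble library 2 (edgeR adjusted p = 0.0586 and 0.0528).

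**Figure D3:**
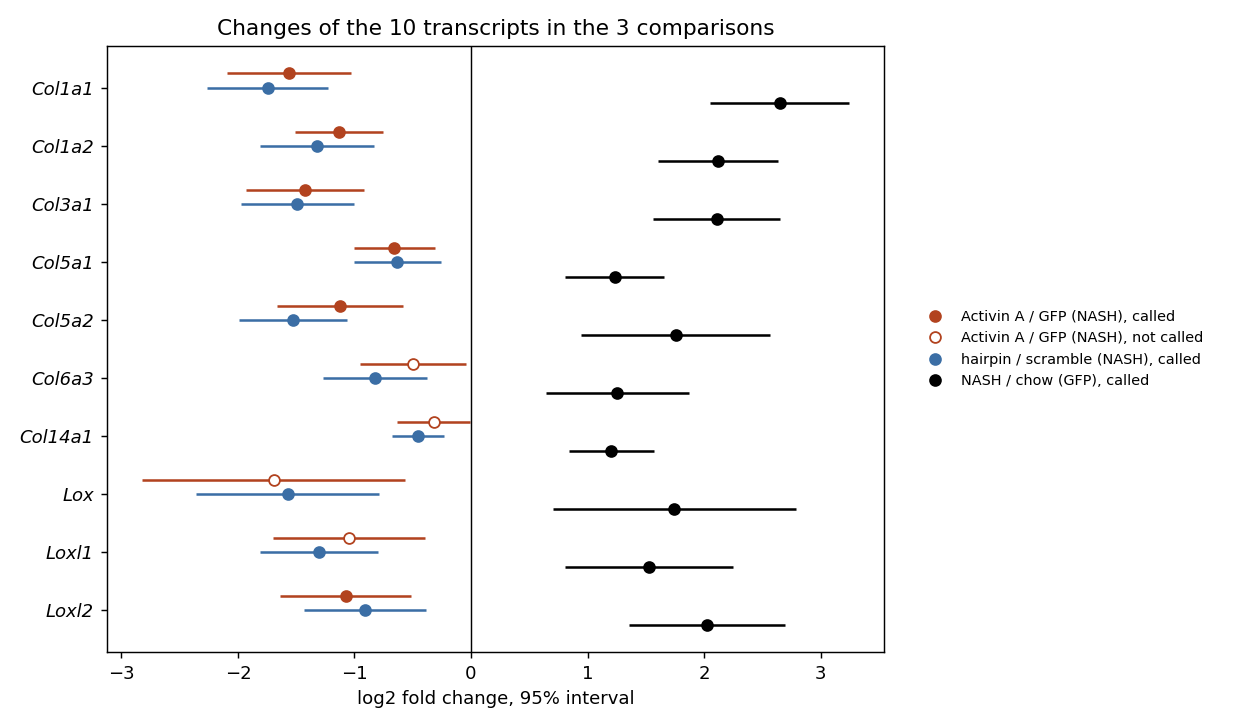
Log2 fold change of each of the 10 transcripts with its 95% interval in the 3 comparisons, Activin A over GFP and hairpin over scramble on the NASH diet, and NASH over chow with GFP. Filled points were called at an adjusted p under 0.05 and open points were not. All diet points are filled and to the right of 0, all hairpin points are filled and to the left, and the open points are Col6a3, Col14a1, Lox and Loxl1 under Activin A.

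The changes under Activin A and under the hairpin were then tested against each other in 1 fit of the 12 NASH libraries, each change relative to its own vector control. None of the 10 genes was called (edgeR; 0 of 10 also at an unadjusted p under 0.05, and 0 of 10 with DESeq2), where 6.76% of the 15545 genes tested were. The difference, Activin A change minus hairpin change, ran from -0.15 for Loxl2 (95% interval -0.91 to 0.60) to 0.42 for Col5a2 (95% interval -0.32 to 1.15) on the log2 scale. For Col1a1 it was 0.19 (95% interval -0.62 to 1.01), for Col3a1 0.08 (95% interval -0.69 to 0.85) and for Lox -0.11 (95% interval -1.47 to 1.25). With 3 libraries per group, differences of the sizes inside these intervals were not excluded.

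Levels left above chow were taken from a fit of all 15 libraries, in which vector, hairpin and diet differ together. Scramble livers were higher than chow livers for all 10 genes, from 1.24 ± 0.28 for Loxl1 to 2.82 ± 0.28 for Col1a1 (17% of the 15665 genes tested were called higher). With libraries scaled by their totals alone, higher calls over chow were 78.0% of calls for Activin A, 76.1% for the hairpin and 84.1% for scramble, in place of 50%, 47.2% and 49.4%. The 2 NASH controls, scramble and GFP, did not differ in a called way for any of the 10 genes (edgeR; 0 also at an unadjusted p under 0.05, and 0 with DESeq2; 0.741% of all genes were called in either direction). Their log2 fold changes, scramble over GFP, ran from -0.25 for Loxl1 (95% interval -0.79 to 0.29) to 0.25 for Col14a1 (95% interval -0.04 to 0.53).

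Activin A livers remained above chow livers for 6 of the 10 genes, where 11.8% of all genes were called higher. These were Col1a1 at 1.06 ± 0.28, Loxl2 at 0.92 ± 0.28, Col1a2 at 0.95 ± 0.24, Col14a1 at 0.85 ± 0.14, Col6a3 at 0.73 ± 0.26 and Col5a1 at 0.54 ± 0.19 on the log2 scale (edgeR adjusted p = 0.000222 to 0.0489). The log2 fold changes of Col3a1, Col5a2, Lox and Loxl1 were 0.65, 0.61, 0.02 and 0.45 and were not called. Hairpin livers remained above chow livers for 5 genes, where 12.2% of all genes were called higher: Col1a1 at 1.08 ± 0.28, Col14a1 at 0.97 ± 0.14, Loxl2 at 0.94 ± 0.28, Col1a2 at 0.82 ± 0.24 and Col5a1 at 0.73 ± 0.19 (edgeR adjusted p = 7.55e-05 to 0.0193). For Col5a2, Lox and Loxl1 in hairpin livers the values against chow were 0.13 (95% interval -0.54 to 0.80), 0.05 (-1.04 to 1.15) and -0.05 (-0.67 to 0.57), the last being 0.16 when libraries were scaled by their totals alone. Col3a1 at 0.46 and Col6a3 at 0.65 were not called either. The count above chow was 3 of 10 for Activin A without Activin A library 1 or 2 or GFP chow library 1 or 3, and for the hairpin it was 1 without hairpin library 1 and 3 without GFP chow library 3. Over all genes, the number called higher for Activin A over chow was 1853 with every library, and 1411, 1466, 1483 and 1762 in those 4 fits. For the hairpin over chow it was 1916 with every library, 1398 without hairpin library 1 and 1575 without GFP chow library 3.

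**Figure D4:**
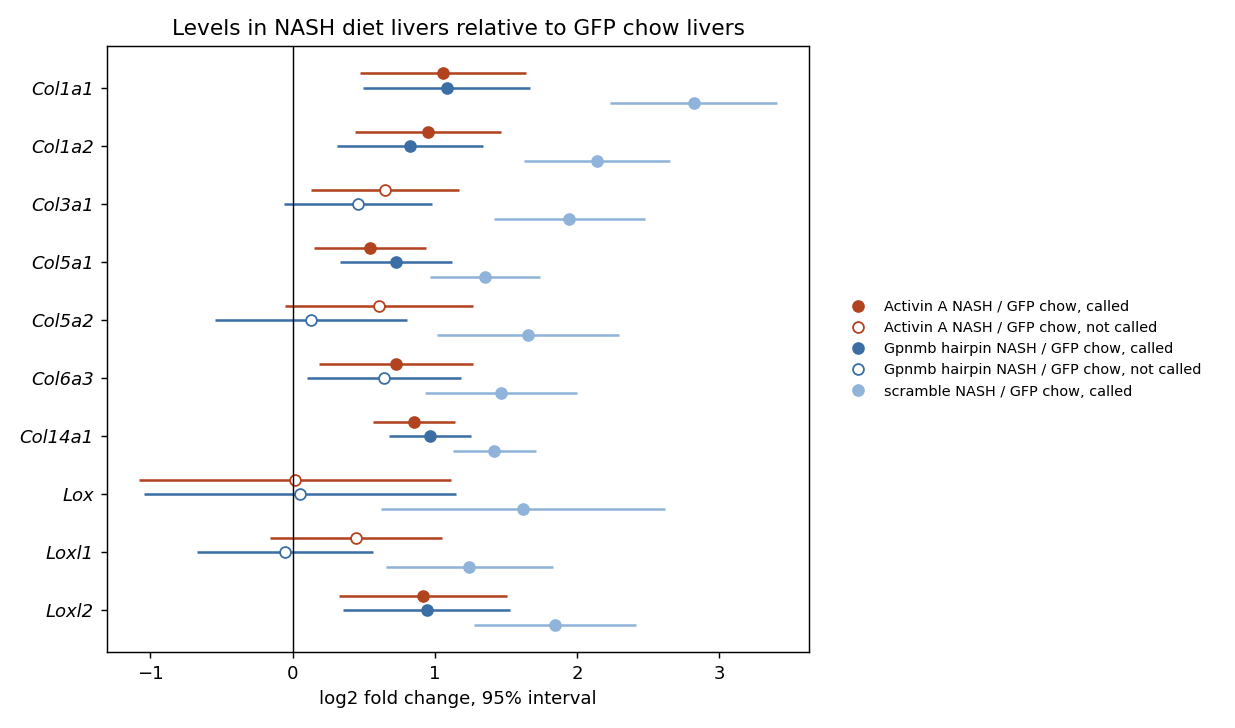
Log2 fold change of each transcript over GFP chow livers, with its 95% interval, for Activin A, hairpin and scramble livers on the NASH diet. Filled points were called and open points were not. Every scramble point is filled and lies right of 1, whereas the Activin A and hairpin points lie between about the chow level and 1.08.

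The order of the 5 groups by mean level was similar but not the same from gene to gene. For Col1a1 the means were 18.5 ± 1.60 CPM in Activin A livers, 18.6 ± 5.47 CPM in hairpin livers, 63.3 ± 19.5 CPM in scramble livers, 53.8 ± 18.9 CPM in NASH GFP livers and 8.80 ± 0.755 CPM in chow livers (SD, n = 3 each). In that order scramble and GFP overlapped, hairpin and Activin A overlapped, and the other neighbouring groups were apart. For Col5a2 Activin A livers averaged 5.49 ± 0.410 CPM and hairpin livers 3.91 ± 0.980 CPM, and these neighbours did not overlap. The hairpin and chow groups of Col5a2 overlapped, with chow at 3.58 ± 1.56 CPM. For Loxl1 hairpin livers, at 2.62 ± 0.708 CPM, were the lowest group and overlapped with chow livers at 2.71 ± 0.369 CPM.

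Per kilobase of transcript, Col3a1 and Col14a1 were the most abundant of the 10 and Lox the least. In NASH GFP livers Col3a1 stood at 24.8 CPM per kilobase, Col14a1 at 15.7, Col1a2 at 10.4, Col1a1 at 9.07 and Lox at 0.399. In chow livers the first place was held by Col14a1 at 6.99 CPM per kilobase, above Col3a1 at 5.92. The order of Col14a1 and Col3a1 depended on the length used, since with the gene lengths of the deposited tables Col14a1 was at 14.4 and Col3a1 at 14.1 CPM per kilobase in NASH GFP livers.

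The make-up of the fibril transcripts also differed between groups. The ratio of Col1a1 to Col3a1, each per kilobase of transcript, was 0.357, 0.283 and 0.363 in Activin A livers, 0.374, 0.422 and 0.378 in hairpin livers, 0.415, 0.487 and 0.462 in scramble livers, 0.362, 0.372 and 0.360 in NASH GFP livers and 0.263, 0.270 and 0.220 in chow livers. All the NASH groups, treated and control, were thus above chow in every library. Hairpin overlapped scramble in 1 library, and Activin A overlapped NASH GFP. The ratio of Col1a1 to Col1a2 averaged 0.648 in Activin A livers, 0.727 in hairpin livers, 0.956 in scramble livers, 0.850 in NASH GFP livers and 0.615 in chow livers, and hairpin did not overlap scramble. The ratio of Col5a1 to Col1a1 ran the other way, averaging 0.494 in Activin A livers, 0.548 in hairpin livers, 0.266 in scramble livers, 0.287 in NASH GFP livers and 0.700 in chow livers. These ratios are a description and were not tested.

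Marker genes of other cell types were read beside the set. Of all genes tested, 1.66% were called higher and 3.86% lower under Activin A. The shares called higher and lower were 12.2% and 12% under the hairpin, and 11.2% and 5.82% on the diet. Summed over the 10 genes, the level was 216 to 230 CPM in Activin A libraries, 185 to 272 CPM in hairpin libraries, 370 to 532 CPM in scramble libraries, 305 to 493 CPM in NASH GFP libraries and 121 to 134 CPM in chow libraries. The summed level of 10 hepatic stellate cell markers was 379 to 429 CPM, 373 to 385 CPM, 428 to 435 CPM, 332 to 393 CPM and 213 to 280 CPM in the same groups. Of these stellate markers 5 were called higher on the diet, 1 lower under Activin A (Pdgfrb, -0.56 ± 0.14) and 5 lower under the hairpin. The stellate list median was 0.02 on the log2 scale under Activin A, where 1 call of 10 is within 1 gene of the share over all genes, -0.34 under the hairpin and 0.71 on the diet. The stellate sum averaged 406 CPM in Activin A livers, against 360 CPM in NASH GFP livers, so it was not lower there as the set was. Of 6 myofibroblast markers 3 were called higher on the diet, 0 under Activin A (edgeR; 2 at an unadjusted p under 0.05, and 2 called by DESeq2) and 3 lower under the hairpin, Acta2 among them at -1.41 ± 0.22. The sum of the set relative to the stellate sum was 0.551 in Activin A livers, 0.576 in hairpin livers, 1.05 in scramble livers, 1.18 in NASH GFP livers and 0.524 in chow livers. Of 6 portal fibroblast and mesothelium markers tested, 2 were called higher on the diet. Under Activin A edgeR called 0 of these 6, with 1 at an unadjusted p under 0.05 and 0 called by DESeq2. Under the hairpin edgeR called 0, with 2 at an unadjusted p under 0.05 and 1 called by DESeq2.

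Macrophage markers were higher in both NASH control groups than in the other 3 groups. The sum of 8 macrophage markers was 191 to 233 CPM in Activin A libraries, 236 to 316 CPM in hairpin libraries, 407 to 475 CPM in scramble libraries, 371 to 471 CPM in NASH GFP libraries and 159 to 170 CPM in chow libraries. All 8 were called higher on the diet, 6 lower under Activin A and 5 lower under the hairpin. The sum of 5 cholangiocyte markers averaged 54.6 CPM in Activin A livers, 84.1 CPM in hairpin livers, 143 CPM in scramble livers, 200 CPM in NASH GFP livers and 63.3 CPM in chow livers. Of these 5 markers 3 were called higher on the diet, 1 lower under Activin A and 0 under the hairpin (edgeR; 2 at an unadjusted p under 0.05, and 0 called by DESeq2). The cholangiocyte sum was lowest within its group in scramble library 1, at 70.6 CPM, and in GFP NASH library 3, at 129 CPM. These libraries were also lowest for most genes of the set. In hairpin livers the cholangiocyte sum was lowest in library 1, at 77.4 CPM, where 9 genes of the set were highest. It was lowest in Activin A library 3, at 51.9 CPM, and chow library 2, at 54.3 CPM. In these, 1 and 3 genes of the set were lowest. The sum of 5 hepatocyte markers ran the other way, averaging 76694 CPM in Activin A livers, 73962 CPM in hairpin livers, 62777 CPM in scramble livers, 62103 CPM in NASH GFP livers and 105328 CPM in chow livers. Of these 5, 3 were called lower on the diet, 2 higher under Activin A and 2 higher under the hairpin. Of 4 vascular smooth muscle markers 1 was called lower under the hairpin and 0 in the other main comparisons (0 also at an unadjusted p under 0.05). Of 6 sinusoidal endothelium markers 1 was called higher on the diet and 1 lower under the hairpin. Under Activin A 1 of these 6 was called higher and 1 lower. No marker of the 8 lists was at 0 in every library of a group. The part of these cell types in the results was not tested.

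**Figure D5:**
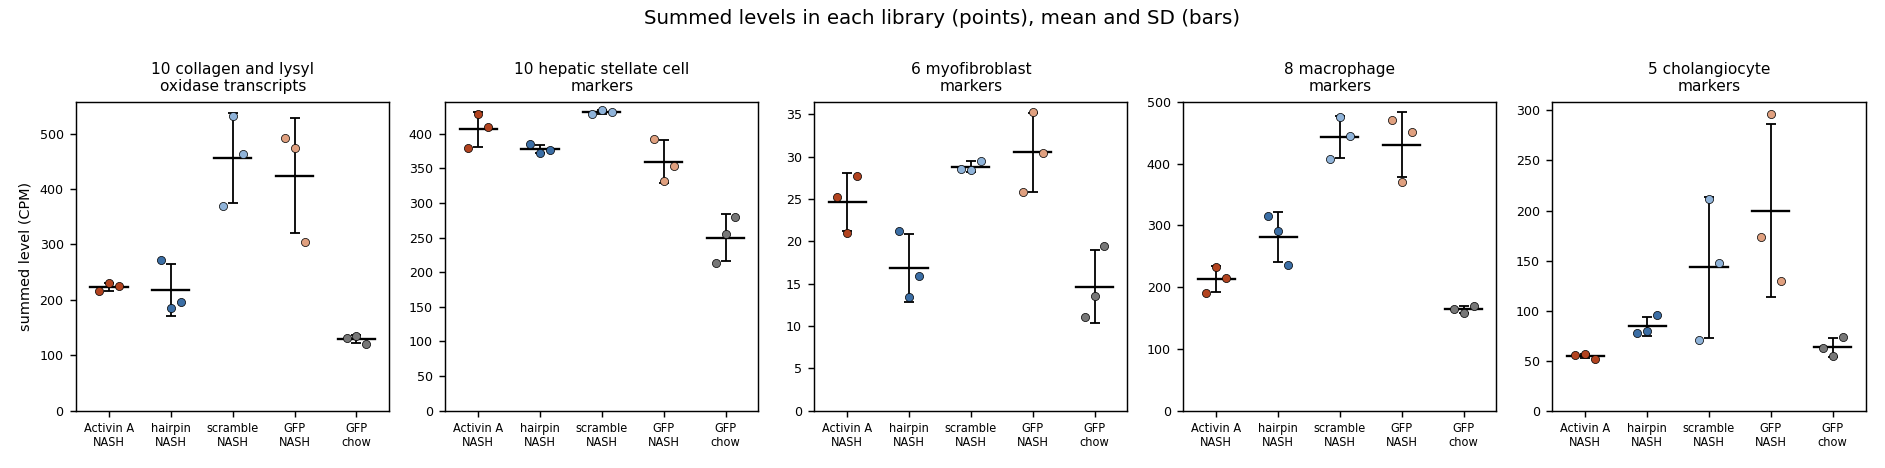
Summed level in CPM (linear axes from 0) of the 10 transcripts and of 4 lists of marker genes in each of the 15 libraries. Points are libraries in replicate order, and bars are the group mean and SD (n = 3). Activin A libraries reach 230 CPM for the 10 transcripts, below the lowest NASH GFP library at 305 CPM, while the stellate marker sums of these groups overlap.

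The pathway around the fibril was read from lists of genes by role, each count to be set against the share of all genes called: 1.66% higher and 3.86% lower under Activin A, 12.2% higher and 12% lower under the hairpin, and 11.2% higher and 5.82% lower on the diet. Of the other collagens of related families, 4 of 9 tested were called higher on the diet and 1 lower, with a list median of 1.02 on the log2 scale against -0.01 over all genes. Col6a1, which pairs with Col6a3 in collagen VI, rose by 1.02 ± 0.17 (edgeR adjusted p = 0.00321), whereas Col27a1, a fibrillar collagen best known from cartilage, changed by -1.22 ± 0.23 (edgeR adjusted p = 0.00611). Col27a1 stood at 62.3, 62.1 and 59.7 CPM in Activin A livers, against 34.2, 26.4 and 17.5 CPM in NASH GFP livers, a change of 1.22 ± 0.20 (edgeR adjusted p = 0.00795). In both comparisons, which share their GFP NASH libraries, that is the opposite direction to the fibrillar chains of the set. Under the hairpin Col27a1 was not called, at -0.15 ± 0.12 (edgeR adjusted p = 0.401). Col16a1, a FACIT collagen, fell under Activin A (-0.84 ± 0.20, edgeR adjusted p = 0.0410), and of 9 tested 1 was called higher and 1 lower there. Under the hairpin 2 of 10 were called lower, Col6a2 among them at -0.83 ± 0.19 (edgeR adjusted p = 0.0109), and 1 higher, Col6a6 at 1.34 ± 0.41 (edgeR adjusted p = 0.0362).

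Of the remaining lysyl oxidases, Loxl3 rose on the diet (1.20 ± 0.36, edgeR adjusted p = 0.0459) and fell under the hairpin (-0.80 ± 0.25, edgeR adjusted p = 0.0404). Under Activin A its value was -0.11 ± 0.28 (edgeR adjusted p = 0.890). Loxl4 was not called, with -0.28 ± 0.43 on the diet, -0.69 ± 0.38 under Activin A and -0.16 ± 0.37 under the hairpin.

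Enzymes and chaperones prepare procollagen inside the cell. Of 15 hydroxylation and glycosylation genes tested on the diet, 3 were called higher and 1 lower (list median 0.35), with Fkbp10, a procollagen prolyl isomerase, at 2.02 ± 0.49 and Ppib, another prolyl isomerase, at -0.92 ± 0.20 (edgeR adjusted p = 0.0186 and 0.0121). Under Activin A 0 of 15 were called with edgeR, with 2 at an unadjusted p under 0.05 and 1 called with DESeq2. Under the hairpin 3 of 14 were called higher and 1 lower (list median -0.13), close to the share over all genes, with the prolyl hydroxylase gene P3h1 at 0.52 ± 0.10 and the lysyl hydroxylase gene Plod1 at -0.34 ± 0.07 (edgeR adjusted p = 0.00392 and 0.00475). Serpinh1, the collagen chaperone Hsp47, stood at 10.1, 7.84 and 10.1 CPM in hairpin livers, against 16.7, 25.3 and 21.2 CPM in scramble livers, a change of -1.15 ± 0.16 (edgeR adjusted p = 0.000872). It was the 1 folding and secretion gene of 11 called lower under the hairpin, while 4 were called higher, among them the chaperone gene Hyou1 at 1.09 ± 0.15 (edgeR adjusted p = 0.000676). On the diet edgeR called 0 of these 11 genes (5 at an unadjusted p under 0.05, and 2 called by DESeq2), and under Activin A it called 0 (2 at an unadjusted p under 0.05, and 1 called by DESeq2). Serpinh1 had values of 1.06 ± 0.36 (edgeR adjusted p = 0.0720) and -0.78 ± 0.33 (edgeR adjusted p = 0.221).

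Outside the cell, procollagen is trimmed by proteases and meets the proteins of the fibril surface. Adamts2, which removes the amino-terminal propeptide, rose on the diet (1.05 ± 0.22, edgeR adjusted p = 0.00998) and fell under the hairpin (-0.98 ± 0.16, edgeR adjusted p = 0.00209). Bmp1, which removes the carboxy-terminal propeptide, rose under the hairpin by 0.29 ± 0.08 (edgeR adjusted p = 0.0181). Of 5 processing genes tested, 2 were called higher on the diet, 0 under Activin A (edgeR; 1 at an unadjusted p under 0.05, and 1 called by DESeq2), and 3 lower and 1 higher under the hairpin. Of 18 fibril assembly partners, 15 were called higher on the diet (list median 1.43), 4 lower under Activin A (list median -0.54) and 11 lower and 1 higher under the hairpin (list median -0.66). Lumican (Lum), a proteoglycan of the fibril surface, changed by 1.81 ± 0.24 on the diet (edgeR adjusted p = 0.000957), and Thbs1, which encodes thrombospondin 1, by -1.90 ± 0.30 under Activin A (edgeR adjusted p = 0.00745). Sparc, a collagen-binding matricellular protein, changed by -1.07 ± 0.12 under the hairpin, and fibronectin (Fn1), on which fibrils assemble, by 0.50 ± 0.08 in the other direction (edgeR adjusted p = 0.000279 and 0.00148).

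Of 8 collagen receptors tested, 4 were called higher on the diet, 1 lower under Activin A and 1 lower under the hairpin (list medians 1.25, -0.47 and -0.17). The 1 of 8 under the hairpin is near the share over all genes. Lair1, an inhibitory collagen receptor of leukocytes, was the gene called in all 3, at -0.98 ± 0.24 under Activin A, -0.94 ± 0.20 under the hairpin and 2.14 ± 0.29 on the diet (edgeR adjusted p = 0.0423, 0.00664 and 0.00104). Of 22 genes of TGF-beta ligands, receptors and immediate targets, 12 were called higher on the diet (list median 0.89), 3 higher and 2 lower under Activin A (list median 0.00) and 2 higher and 8 lower under the hairpin (list median -0.13). Among the 3 higher under Activin A was Inhba, which encodes the delivered Activin A, so its call follows from the design. Tgfb2, a ligand, changed by -1.87 ± 0.32 under Activin A (edgeR adjusted p = 0.00975). Inhbe, another activin subunit, changed by -0.99 ± 0.14 and Inhba by 0.92 ± 0.17 under the hairpin (edgeR adjusted p = 0.000802 and 0.00325).

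The genes whose pattern over the 15 libraries was most like the median of the 10 were found by the root mean square difference of centred log2 CPM, over 12245 genes of mean log2 CPM of at least 1. The 8 nearest were Cd93, Neurl3, Ppfia4, Cxcl16, Fcgr3, C1qb, AB124611 and St6galnac4, at 0.188 to 0.213, where the median of all genes compared was 0.72. Within the set itself Loxl2 was nearest to the median, at 0.154, and Col1a1 was farthest, at 0.421. Cd93 averaged 8.79 CPM in Activin A livers, 8.18 CPM in hairpin livers, 14.7 CPM in scramble livers, 16.8 CPM in NASH GFP livers and 4.60 CPM in chow livers. C1qb, a chain of complement C1q, averaged 39.7, 37.5, 74.4, 85.9 and 24.9 CPM in the same groups. Because 15 libraries in 5 groups leave few independent patterns, the likeness is a description.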

How the data were processed

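Liver RNA was sequenced as 15 libraries, 3 in each of 5 groups, per the labels from a stranded poly(A) kit. The authors deposited 3 tables, 1 per comparison, which per the file headers hold whole-number counts per gene and library, and these counts were used in every test. Per the file headers the authors also deposited log2 fold changes and adjusted p-values, which are cited only as theirs, and gene lengths and positions. The tables hold 36 further columns of per-library values and 6 of group means, which were not used. The genome build was GRCm38 (mm10), per the submitters' processing notes. For the aligner, counting program, strand setting and annotation: not given in the sources used here.

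The members and the gene lists were chosen with earlier results of these data known. Genes were filtered with filterByExpr (minimum count 10), scaled by TMM and put through the two-sided quasi-likelihood test (edgeR 4.0.16, R 4.3.3) over the 6 libraries of a comparison. The difference of effects used 12 libraries and the levels above chow used 15, a gene that a table lacks being taken as 0 there. The standard error (SE) is the log2 fold change divided by the square root of F. Profiles used a pseudocount of 0.5 CPM. DESeq2 1.42.0, other scalings, no filter, a threshold of 0.01, a replicate block and leaving out each library were the alternatives. Besides the set, the genes named are Gpnmb, Inhba, Loxl3, Loxl4, the called member with the smallest p per direction in each pathway list and comparison, and the 8 nearest profiles. A gene that this rule names is not reported here. Serpinh1 on the diet and under Activin A, Col27a1 under the hairpin, Pdgfrb and Acta2 were named after their values were seen. The 200-residue stretches were also set after values were seen. The fits were tested on simulated data. Library totals of 15276879 to 23467867 counts leave Lox, with 5 to 49 counts, the least precise. No library looked like a copy of another: within groups, chi-square divided by its degrees of freedom was 5.19 or more.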

Additional observations from a re-analysis of the deposited data

How the results depend on the processing

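Of 360 recomputed log2 fold changes of the 10 genes in the 3 main comparisons, 319 kept their direction and side of the threshold, 32 lost the call, 9 gained one and 0 reversed. At a threshold of 0.01 the genes called numbered 3 under Activin A in place of 6, 2 for Activin A over chow in place of 6, and 3 for the hairpin over chow in place of 5. Leaving out 1 library gave 2 to 8 genes lower under Activin A, 9 to 10 higher on the diet, 7 to 10 lower under the hairpin, 3 to 7 above chow with Activin A and 1 to 6 above chow with the hairpin, with fewer libraries in each fit. Lox and Loxl1 were called under Activin A by DESeq2 (adjusted p = 0.0274 and 0.0105), without the filter (edgeR adjusted p = 0.0360 and 0.0121) and in 1 fit of 15 libraries (edgeR adjusted p = 0.0375 and 0.0261), and the cause was not tested. With a replicate block the genes called were 9 on the diet, Lox being lost (edgeR adjusted p = 0.0664), 5 under Activin A, Col5a1 being lost (edgeR adjusted p = 0.0807), 10 under the hairpin, and 5 and 5 above chow with Activin A and the hairpin. Same-numbered libraries of the compared groups did not deviate together (correlations of -0.165 to 0.015 across genes). Whether they share a batch that moves few genes was not tested. With scaling by library size alone the median of all genes was 0.24 on the diet, in place of -0.01. Under the hairpin it was -0.11, in place of 0.00. The share of calls that were higher went to 86.8% from 65.7% on the diet and to 29.0% from 50.3% under the hairpin. No direction among the 10 genes changed in these comparisons. Over chow, the median of all genes under that scaling was 0.21 for Activin A, 0.22 for the hairpin and 0.30 for scramble, and the genes called higher numbered 3415 in place of 1853, 3703 in place of 1916 and 5161 in place of 2659, with 7, 6 and 10 of the 10 genes called. The uncalled value of Loxl1, hairpin over chow, changed sign (-0.05 to 0.16), as did that of Col5a1, Activin A change minus hairpin change (-0.01 to 0.01). Depth limits Lox most, at 5 to 49 counts.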
